A study of Homo sapiens with 6 samples.

Results

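The stretch chr8:6900000-12700000 lies in band 8p23, which is known for its defensin genes; every position below follows the build hg19. All peaks whose midpoint lay in this stretch of 5.8 Mb were taken, which gave 335 of the 181131 peaks in the 4 deposited lists. They comprised 55 of 25797 RIP-1 non-exon peaks, 253 of 134094 RIP-2 non-exon peaks, 14 of 10960 RIP-1 mRNA-list peaks and 13 of 10280 RIP-2 mRNA-list peaks. The flanks, the first 1.3 Mb (left flank) and the last 0.9 Mb (right flank), held 186 of the 335 peaks on 2.2 Mb, and the middle between them held 149 on 3.6 Mb. Members were chosen by position, but the stretch itself was selected on earlier overlap results of the same lists, including a window of 100 kb in the right flank that was rich in shared peaks. The values below are therefore given as a description, without tests.

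The data came from wild-type HEK293T, a human cell line of embryonic kidney origin that carries the SV40 large T antigen. RNA immunoprecipitation and sequencing (RIP-seq), in which RNA bound to a protein is recovered with an antibody and sequenced, was done for SF3B4 in 2 experiments, RIP-1 and RIP-2. Both comprised anti-SF3B4, IgG and input libraries, without any genetic change or treatment in the labels, so 6 libraries in 3 groups of 2. Each experiment contributed 1 peak call, which the authors split into lists called mRNA and NotExon (here the non-exon list).

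Defensins are small antimicrobial peptides. Alpha-defensins are known from neutrophils and from Paneth cells of the gut, and beta-defensins from epithelia. In 8p23 the beta-defensin genes sit in clusters that occur in several near-identical copies, whose number varies between people, and the duplicated blocks on both sides of the intervening segment are known as the ends of a common inversion. A read from such a block can match more than 1 copy, so a peak there may stand for RNA of another copy. The sources used here do not say how reads with several matches were treated or how many copies HEK293T carries. SF3B4 belongs to SF3b, which helps the U2 small nuclear ribonucleoprotein to engage the branch site of introns, and it is known to act on unspliced RNA.

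The RefSeq gene table used follows a different assembly (GRCh38.p14), so it served for names and order only and no peak was assigned to a gene. It held 35 of 36 genes listed for the flanks, 21 of them defensins, and all 21 genes listed for the middle. In the table's order the flank list runs from DEFB1 and the alpha-defensins (DEFA6, DEFA4, DEFA1, DEFA3, DEFA5) through a first beta-defensin block (DEFB4B to DEFB107B). A second block follows in the opposite order (DEFB107A to DEFB4A), and the far side holds DEFB136, DEFB135, DEFB134, FAM86B1, FAM86B2 and LONRF1. The middle list includes ERI1, an exoribonuclease that acts on histone mRNA ends, TNKS, a poly-ADP-ribose polymerase, and XKR6. It goes on with BLK, a B-cell tyrosine kinase, GATA4, a transcription factor of heart and endoderm, NEIL2, a DNA glycosylase, FDFT1, the squalene synthase, and CTSB, the lysosomal protease cathepsin B. Whether the peaks lie in these genes, and whether the flanks are duplicated in the sequence, was not checked here.

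Non-exon peaks crowded in the flanks in both experiments. RIP-1 had 34 non-exon peaks in the flanks, 15.5 per Mb, and 21 in the middle, 5.83 per Mb, a ratio of 2.65 (95% exact interval 1.49 to 4.80). RIP-2 had 144 in the flanks, 65.5 per Mb, and 109 in the middle, 30.3 per Mb, a ratio of 2.16 (95% exact interval 1.67 to 2.80). All intervals here cover counting error alone and take each peak as independent. Across the 2902 windows of 1 Mb of the genome that held any peak, the median window held 8 RIP-1 non-exon peaks (quartiles 5 and 12) and 43 RIP-2 non-exon peaks (quartiles 30.2 and 58). The flanks thus lay above the upper quartile of both lists, and the middle lay near the lower quartile. The right flank was the denser side, with 17.8 RIP-1 and 74.4 RIP-2 peaks per Mb; the left flank had 13.8 and 59.2. The depth of the libraries is unknown, so no difference between the experiments was tested.

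Both mRNA lists held few peaks here, and the RIP-1 mRNA list ran the other way from the non-exon lists. RIP-1 had 1 mRNA-list peak in the flanks (0.455 per Mb) and 13 in the middle (3.61 per Mb), against 3.78 per Mb over the genome windows. The ratio of flanks to middle was 0.126 (95% exact interval 0.00296 to 0.838). Of those 13, 6 lay close together between 9620656 and 9639662, and the interval takes them as independent. RIP-2 had 7 in the flanks (3.18 per Mb) and 6 in the middle (1.67 per Mb), against 3.54 per Mb over the genome windows. The ratio was 1.91 with a wide interval (0.549 to 6.88). The RIP-1 middle and the RIP-2 flanks thus lay near the genome values. The left flank held no RIP-1 mRNA-list peak and 2 RIP-2 peaks.

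**Figure D1:**
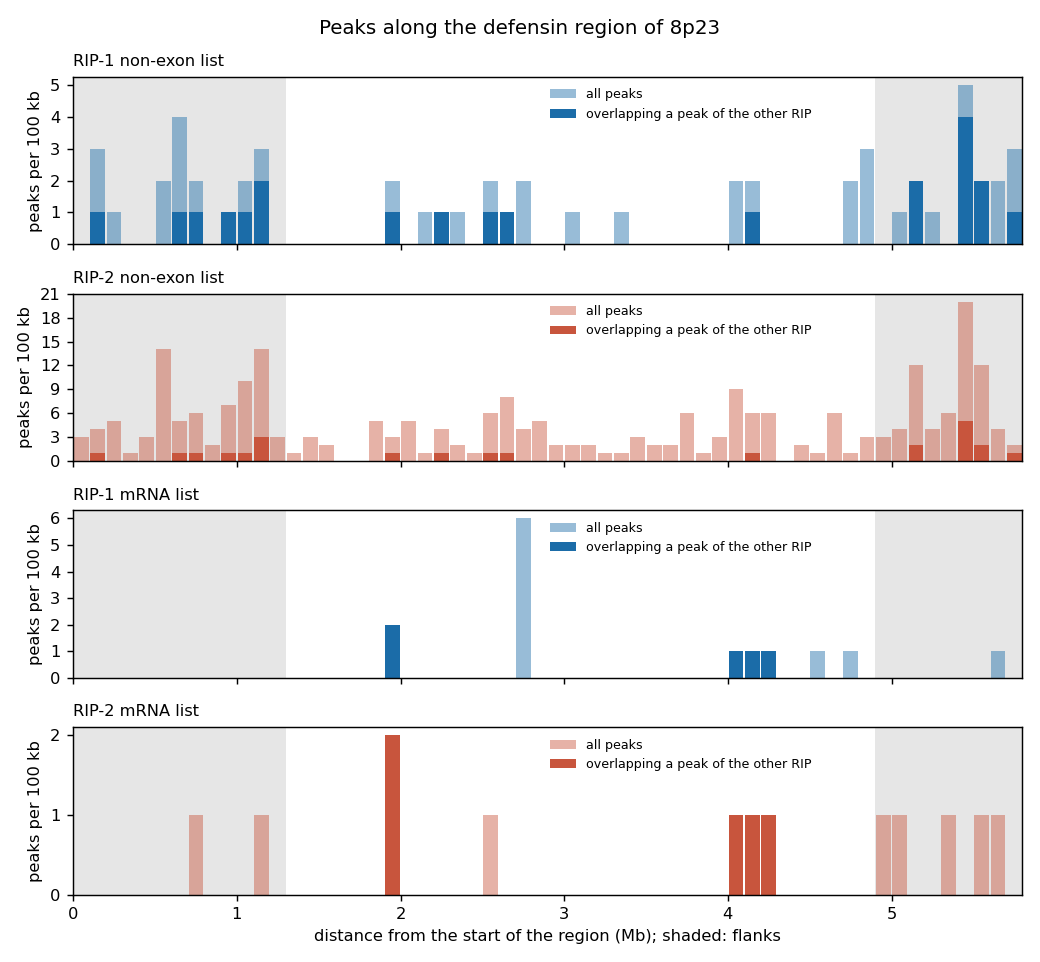
Number of peaks per window of 100 kb (y axis) against the distance from the start of the region in Mb (x axis), for each of the 4 lists; dark bars count peaks that overlap a peak of the other experiment, and shading marks the flanks. The highest non-exon windows of both experiments, with 5 RIP-1 and 20 RIP-2 peaks, coincide in the right flank, while the tallest mRNA-list bar, with 6 RIP-1 peaks, stands in the middle.

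At the scale of 100 kb, RIP-1 non-exon peaks were found in 15 of 22 flank windows and in 13 of 36 middle windows. RIP-2 non-exon peaks were found in all 22 flank windows and in 33 of 36 middle windows. The 3 windows without a peak of any list all lay in the middle, and the longest stretch with none ran for 211 kb from 8497773 to 8708901. RIP-1 left a stretch of 776 kb without a non-exon peak, from 8091290 to 8867032, which spans the inner edge of the left flank.

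At the outer edges of the rule, the RIP-1 non-exon peak just inside on the left lay 178 kb from the edge with a score of 78.4, and the one just outside lay 351 kb away with a score of 51.4. On the right, the peak just inside lay 21.0 kb from the edge with a score of 56.6 and the one just outside 814 kb away with a score of 56.2. RIP-2 non-exon peaks were close to both outer edges on both sides, at 21.9 to 58.6 kb. No peak of any list overlapped the region without having its midpoint inside.

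Among the RIP-1 non-exon peaks of the flanks, some occurred as pairs with the same values. A peak from 7401250 to 7401758 and a peak from 7634327 to 7634835, both in the left flank, had the same width (509 bp), score (56.8), fold enrichment (6.63) and false discovery rate (FDR, 100%). In the right flank, peaks starting at 11912239 and at 12158803, 246564 bp apart, were both 293 bp wide with a score of 164, a fold enrichment of 9.95 and an FDR of 72.7%. These were the flank peaks of highest fold enrichment after the strongest pair described next. These made up 4 of the 34 RIP-1 flank peaks (95% Wilson interval 4.67% to 26.6%) with a peak of identical values on chromosome 8, and 0 of 21 had one in the middle (up to 15.5%). Over the whole RIP-1 non-exon list, 0.779% of peaks had such a counterpart on their own chromosome. In RIP-2 identical values were common everywhere, in 14.2% of the whole list, 12 of 144 flank peaks (8.33%) and 18 of 109 middle peaks (16.5%), so that count does not set the flanks apart in RIP-2. By width and fold enrichment alone, 22 of 144 RIP-2 flank peaks (15.3%), 30 of 109 middle peaks (27.5%) and 29.2% of the whole list had a counterpart on their chromosome. In RIP-1 these shares were 20.6% in the flanks, 0% in the middle and 2.62% of the whole list. Within a zone, the 210 RIP-1 and 5886 RIP-2 pairs of middle peaks included no pair of equal width and fold enrichment. The left flank held 2 such pairs among 153 in RIP-1 and 2 among 2926 in RIP-2, and the right flank 1 among 120 and 1 among 2211. Both flanks counted, the pairs of equal width and fold enrichment were 1.10% of pairs in RIP-1 and 0.0584% in RIP-2. Among pairs of peaks less than 1.3 Mb apart outside the region the shares were 0.00371% (13 of 350530) and 0.00741% (691 of 9331379). The RIP-2 counts depend on exact width. In the middle, RIP-2 peaks starting at 11334441 and 11354318 had the same score, fold enrichment and FDR at nearly the same width. So did those starting at 7426789 and 7953731 in the left flank. Near matches were not counted, so the lack of exact pairs in the RIP-2 middle does not by itself set the flanks apart.

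The third RIP-1 pair belonged to a longer series that recurred further along the left flank. Peaks of 573 bp with a fold enrichment of 6.22 each started at 7080213 and at 7538809, 458596 bp apart, with scores of 65.0 and 59.6. Beside them lay the strongest RIP-1 peaks of the region, again 458491 bp apart. The first, from 7084212 to 7085253, had a fold enrichment of 14.2, a score of 320.3 and an FDR of 8.91%, and the second, from 7542703 to 7543848, had 12.2, 286 and 12.6%. They ranked 172 and 359 of 25797 by fold enrichment, and they were the peaks of the RIP-1 flanks with an FDR under 50%. Both were met by RIP-2 peaks, from 7084712 to 7085522 (fold enrichment 13.0, score 138) and from 7543290 to 7544092 (fold enrichment 11.6, score 94.5), which were 458578 bp apart. RIP-2 had another pair at this separation with equal values, 531 bp wide at 7104675 and 7563220, with a fold enrichment of 4.34 and a score of 52.6 in each. Within 500 bp of this separation RIP-1 had 4 pairs of peaks and RIP-2 had 5, unlike peaks included, such as those starting at 7542703 and 8001484 (1146 and 3651 bp wide). At 198 neighbouring separations, in steps of 1 kb up to 100 kb either side, the median was 0 pairs in RIP-1 (highest 2) and 3 in RIP-2 (highest 9), so the RIP-2 number was within the range of its surroundings. The 2 identical RIP-1 pairs above had no other RIP-1 pair at their separations. The tolerance and the neighbouring separations were chosen after the values were seen. The 4 RIP-1 pairs include the pair of 573 bp that set the separation. A pair was thus certain at this separation but not at the neighbouring ones.

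Some of the RIP-2 peaks of high fold enrichment in the left flank had a counterpart at another spacing. A peak of 271 bp with a fold enrichment of 9.64 and a score of 156 started at 7438173 and, with the same values, at 7870871, 432698 bp apart. The next peak started at 7440100 (291 bp, fold enrichment 23.1, score 537) and, after 432738 bp, at 7872838 (252 bp, fold enrichment 30.8, score 1007). Further peaks at 7441733 and 7874357 were 432624 bp apart, with fold enrichments of 15.4 and 15.9. The highest fold enrichment of RIP-2 in the region, 35.4 with a score of 725, belonged to a peak from 7881055 to 7881475 and ranked 13 of 134094. The peak at 7872838 ranked 30, and a peak from 7440686 to 7441330, with a fold enrichment of 23.6, ranked 200. Of these 3, the first and the last had no counterpart at the spacing of 432698 bp. RIP-2 had 4 pairs within 500 bp of it, near the median of 3 at the 198 neighbouring separations (highest 8). These 4 include the pair of 271 bp that set the spacing. None of the left-flank peaks just named was shared with RIP-1, and each of the 3 ranked peaks had an FDR of 100%. In the right flank a RIP-2 pair of 585 bp, at 11932781 and 12179348 with a fold enrichment of 8.67 each, was 246567 bp apart, within 3 bp of the separation of the identical RIP-1 pair there. RIP-2 had 5 pairs within 500 bp of that separation, against a median of 4 at neighbouring ones (highest 10). The part that copies of one sequence have in these pairs was not tested.

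**Figure D2:**
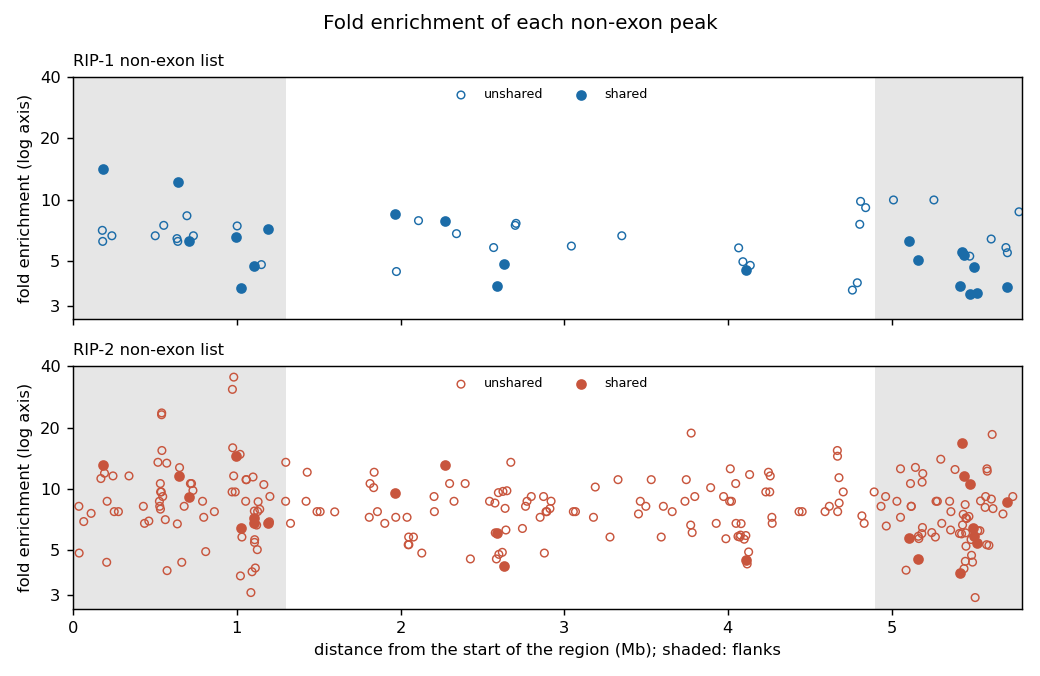
Fold enrichment of each non-exon peak as deposited (y axis, log scale) against the distance from the start of the region in Mb, with RIP-1 above and RIP-2 below; filled circles mark peaks shared between the experiments, and shading marks the flanks. RIP-1 peaks reach 14.2 and 12.2 in the left flank, and RIP-2 peaks reach 35.4 and 30.8 there.

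Typical strength differed less than the extremes. The score of a peak behaves as 10 times the negative log10 of its p-value, and fold enrichment is over a control library that is not named. RIP-1 flank peaks had a median fold enrichment of 6.25 (interquartile range 5.10 to 7.10), against 5.90 in the middle (4.74 to 7.63). RIP-2 flank peaks had a median of 8.04 (6.18 to 10.6), against 7.71 in the middle (6.62 to 9.64). The quartiles of flanks and middle overlapped in both lists, and the medians of the whole lists were 6.55 and 8.19. Median scores were 61.4 in the flanks and 66.8 in the middle for RIP-1, and 84.3 and 80.2 for RIP-2. An FDR of 100% was given to 30 of 34 flank peaks and 20 of 21 middle peaks in RIP-1, against 94.1% of the whole list. In RIP-2 it was given to 67 of 144 flank peaks and 46 of 109 middle peaks, against 41.6% of the whole list. These shares lie near those of the whole lists. The lowest FDR of any RIP-2 non-exon peak was 68.4% in the flanks, 68.4% in the middle and 68.3% in the whole list. In RIP-1 an FDR under 50% was given to 2 flank peaks and 1 middle peak. The densities and overlaps given here therefore rest on peaks of high FDR in RIP-2, and mostly so in RIP-1.

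Width differed between the sides. RIP-1 peaks had a median width of 661 bp in the left flank and 1275 bp in the right flank, against 927 bp in the middle, and RIP-2 peaks 593 and 895 bp, against 506 bp. Peaks of 2000 bp or more made up 14.7% of RIP-1 and 6.25% of RIP-2 flank peaks, against 9.52% and 2.75% in the middle and 6.58% and 1.39% of the whole lists. The right flank held fewer peaks than the left, 16 against 18 in RIP-1 and 67 against 77 in RIP-2, but more per Mb and wider ones. RIP-2 non-exon peaks covered 8.01% of it, against 4.46% of the left flank, 1.95% of the middle and 3% of the genome windows.

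RIP-1 peaks of the flanks overlapped RIP-2 peaks in 16 of 34 cases by at least 1 bp (47.1%, 95% Wilson interval 31.5 to 63.3). In the middle 5 of 21 did (23.8%, 10.6 to 45.1), and over the whole RIP-1 non-exon list 18.1%. The intervals of flanks and middle overlap. From the side of RIP-2, 18 of 144 flank peaks were shared (12.5%, 8.06 to 18.9), against 5 of 109 in the middle (4.59%, 1.98 to 10.3) and 3.63% of the whole list. The order of flanks and middle did not hold under every way of counting overlap. Under the demand that the overlap take in 50% or more of each peak, 6 of 34 RIP-1 flank peaks (17.6%) and 4 of 21 middle peaks (19%) were shared. With only the strongest RIP-2 peaks of the genome, as many as in RIP-1, the numbers were 6 of 34 (17.6%) and 2 of 21 (9.52%). With the RIP-1 midpoint inside a RIP-2 peak they were 8 of 34 (23.5%) and 4 of 21 (19%). The flanks stayed above the middle in these last settings. No share of the whole list is given under these stricter rules, so their shares cannot be set against 18.1%.

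Overlap was also set against the length covered. Of the bases in RIP-1 flank peaks, 33.1% lay in RIP-2 peaks, while RIP-2 peaks covered 5.91% of the flanks, a ratio of 5.61. In the middle 17.6% of RIP-1 bases lay in RIP-2 peaks, which covered 1.95% of it, a ratio of 9.01. Over the genome windows the ratio was 4.51. Relative to the length covered, the overlap was thus smaller in the flanks than in the middle, where it rests on 5 RIP-1 peaks. Single pairs of peaks weighed much in both zones. The longest overlap gave 4002 of the 14945 overlapping bases in the flanks and 1809 of the 3997 in the middle.

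**Figure D3:**
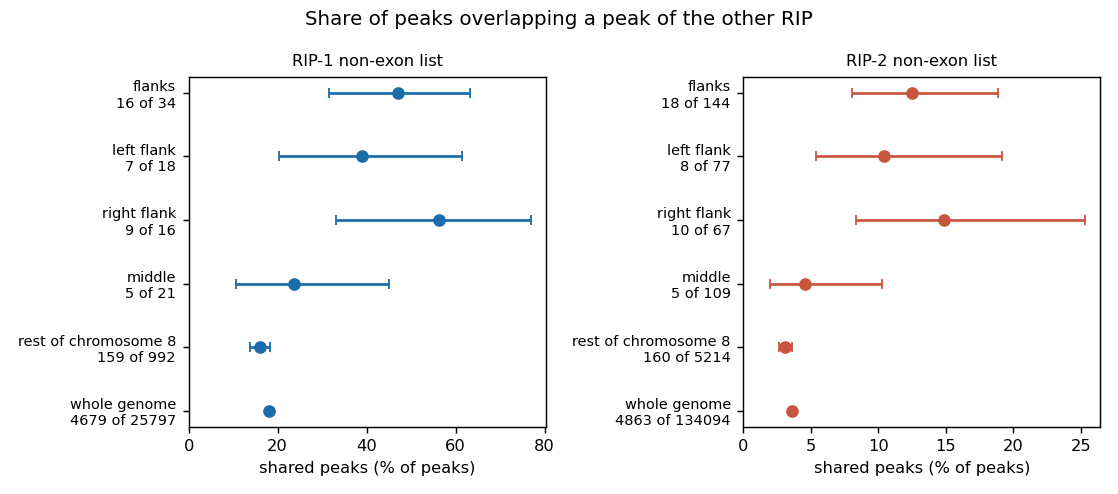
Percent of non-exon peaks that overlap a peak of the other experiment (x axis) in the flanks, each flank, the middle, the rest of chromosome 8 and the whole genome, for RIP-1 (left) and RIP-2 (right); points are shares and bars 95% Wilson intervals. The flanks stand at 47.1% and 12.5%, against 18.1% and 3.63% for the whole lists.

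In the left flank 7 of 18 RIP-1 peaks were shared. Besides the strong pair above, a RIP-1 peak from 7608649 to 7609497 (fold enrichment 6.26) held a whole RIP-2 peak from 7608679 to 7609100 (fold enrichment 9.15). A RIP-1 peak from 7894524 to 7895519 (fold enrichment 6.51) likewise held a RIP-2 peak from 7894827 to 7895367 (fold enrichment 14.4). The other 3 overlapped less neatly. The RIP-1 peaks from 7924930 to 7925978 and from 8090609 to 8091289 met a RIP-2 peak over 81 and 90 bp. A wide RIP-1 peak from 8001484 to 8005134 held a RIP-2 peak of 1031 bp and touched a second over 7 bp.

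In the right flank 9 of 16 RIP-1 peaks were shared, and these matches gathered between 12316347 and 12426157. A RIP-1 peak from 12316347 to 12317687 and a RIP-2 peak from 12316327 to 12317349 overlapped over 1003 bp, with fold enrichments of 3.73 and 3.83. The RIP-1 peaks starting at 12330033, 12339381 and 12378377 had scores of 51.9, 90.5 and 51.1, while their RIP-2 partners had scores of 269, 329 and 259, with fold enrichments of 16.7, 11.6 and 10.5. The widest match joined a RIP-1 peak of 4890 bp, from 12398281 to 12403170 (score 77.0), to RIP-2 peaks of 6581 bp (score 260.2) and 768 bp (score 128). A RIP-1 peak of 6097 bp from 12420061, the widest RIP-1 peak of the region, held a RIP-2 peak of 1044 bp. The other 3 shared RIP-1 peaks started at 12005806, 12059686 and 12603126, with overlaps of 161, 1051 and 625 bp. Without the window of 100 kb from 12300001, which an earlier result had singled out, 12 of 29 RIP-1 flank peaks were shared (41.4%). The next window, from 12400001, held 2 RIP-1 non-exon peaks, both shared. The share of 41.4% thus still includes part of these gathered matches.

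Shared RIP-1 flank peaks were wide (median 1275 bp, against 567 bp for unshared ones) and lower in fold enrichment (median 5.2, against 6.63). The order was the same in the middle (927 against 878 bp, and 4.83 against 6.27) and in the whole list (855 against 684 bp, and 6.17 against 6.63).

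The shared non-exon peaks of the middle were 5. The one with the longest overlap, 1809 bp, joined a RIP-1 peak from 11011025 to 11012883 and a RIP-2 peak from 11010829 to 11012833 with fold enrichments of 4.51 and 4.45. The one of highest score in both experiments, from 8867033 to 8867858 in RIP-1 (fold enrichment 8.48, score 136), met a RIP-2 peak from 8867416 to 8868196 (fold enrichment 9.50, score 192). The RIP-2 peak of highest fold enrichment among the shared ones started at 9168839, with 13.0, and met a RIP-1 peak with 7.87. The RIP-1 peaks of highest fold enrichment in the middle were unshared, from 11710414 to 11711395 with 9.79 and from 11741372 to 11741965 with 9.12. In RIP-2 they were also unshared, from 10676077 with 18.8 and from 11569010 and 11569675 with 15.4 and 14.4.

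Shared mRNA-list peaks lay in the middle, and the flanks held too few mRNA-list peaks to compare the zones. Of the 13 RIP-1 mRNA-list peaks of the middle, 5 overlapped a RIP-2 peak on the same strand (38.5%, 95% Wilson interval 17.7 to 64.5), against 6.41% of the whole RIP-1 list. Of the 6 RIP-2 peaks there, 5 were shared (83.3%, 43.6 to 97.0), against 6.91% of the whole list. With 1 RIP-1 peak in the flanks, and none in the left one, hardly any overlap was possible there: 0 of 1 RIP-1 and 0 of 7 RIP-2 peaks were shared, and the Wilson interval still reaches 79.3% and 35.4%.

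The shared mRNA-list segments lay at 5 places. On the plus strand, a RIP-1 segment from 8860298 to 8860681 (score 81.0) and a RIP-2 segment from 8860389 to 8860681 (score 104) had the same end. Further on the same strand, a segment from 8865479 to 8865658 had the same start and end in both lists, with a RIP-1 score of 113 and a RIP-2 score of 69.1. The shared non-exon peak at 8867033 described above began 1375 bp after it. On the minus strand, segments from 10986168 to 10987432 in RIP-1 (score 63.4) and from 10986496 to 10987225 in RIP-2 (score 51.0) overlapped. Further along the minus strand, segments starting at 11058084 in both lists ended at 11058324 in RIP-1 (score 101) and at 11058126 in RIP-2 (score 53.2). The last place, on the plus strand, joined 11182378 to 11182958 in RIP-1 (score 75.5) and 11182261 to 11182951 in RIP-2 (score 57.1).

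**Figure D4:**
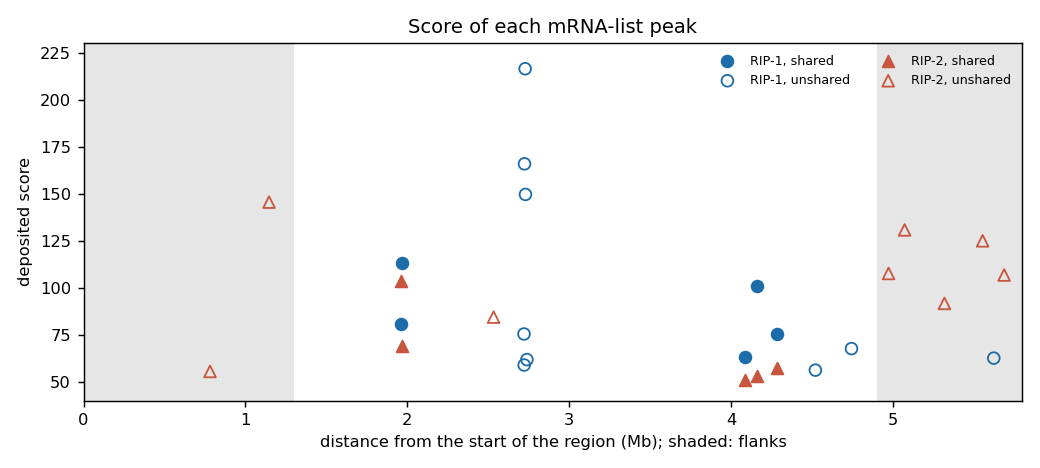
Deposited score of each mRNA-list peak (y axis) against the distance from the start of the region in Mb, with circles for RIP-1 and triangles for RIP-2; filled symbols are shared peaks, and shading marks the flanks. All filled symbols lie in the middle, the highest scores are those of the unshared RIP-1 cluster (up to 217), and the RIP-2 peaks of the right flank lie between 91.7 and 131.

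The largest group of mRNA-list peaks in the region was seen in RIP-1 alone. On the plus strand, 6 segments lay between 9620656 and 9639662. Their scores were 75.4 at 9620656, 58.9 at 9622225, 166 at 9623748, 217 at 9627615, 150 at 9629878 and 61.8 at 9638607. They include the 3 highest mRNA-list scores of the region. The nearest RIP-2 mRNA-list peak, from 9432516 to 9432628 on the same strand (score 84.4), was 188 kb away, and the nearest RIP-2 non-exon peak started at 9644888, 5.23 kb past the last segment. The other unshared RIP-1 segments of the middle were on the plus strand, from 11420487 to 11420619 (score 56.2) and from 11643471 to 11644333 (score 67.7).

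The mRNA-list peaks of the flanks had no partner in the other mRNA list. RIP-1 had a minus-strand segment from 12522786 to 12523120 (score 62.6), whose nearest RIP-2 mRNA-list peak was 63.6 kb away and whose nearest RIP-2 non-exon peak was 2.20 kb away. RIP-2 had minus-strand segments from 7681351 to 7681412 (score 55.5) and from 8046157 to 8046331 (score 146) in the left flank. In the right flank it had plus-strand segments from 11872699 to 11873919 (score 108), from 11971989 to 11972290 (score 131) and from 12218163 to 12218527 (score 91.7). Minus-strand segments followed from 12453647 to 12453723 (score 125) and from 12586682 to 12586896 (score 107). The median score of the 7 RIP-2 flank segments was 108, against 63.1 for the 6 of the middle and 79.6 for the whole RIP-2 list. None of these 7 overlapped a RIP-1 non-exon peak, the nearest being 2.37 kb from the segment at 8046157. RIP-2 non-exon peaks lay 4.66 to 16.3 kb from them.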

How the data were processed

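The submitters' processing notes name HISAT2 2.0.4 and cutadapt 1.9.3, with build hg19. The authors deposited peak lists whose names carry the MACS prefix, 1 call for each RIP experiment. Version, settings and control library: not given in the sources used here. The deposited columns have no header and were read from their values as score, length, fold enrichment (a ratio over the control) and FDR in percent. Non-exon positions count from 1; the counting base of the mRNA lists is unknown. The lists hold no read counts, so depth is unknown.

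Members were taken by midpoint. Overlap was at least 1 bp, on the same strand for mRNA lists, with 95% Wilson intervals. Ratios of densities have 95% exact intervals. No test was made, since the region, its members and the gene lists were chosen with earlier results of these data known. Peaks named are all mRNA-list peaks, all shared RIP-1 flank peaks and the 3 of highest fold enrichment per non-exon list in flanks and middle. Others named were chosen after their values were seen. Python 3.11.15, pandas 2.3.3 and SciPy 1.17.1 were used, and the overlap code was tested on simulated intervals. RefSeq names come from GRCh38.p14.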

Additional observations from a re-analysis of the deposited data

How the results depend on the processing

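Of 42 alternative values for sharing, density ratio, number of members and medians, 35 stayed within the interval of the main value or, for numbers of members, within 1.5 times. The share of RIP-1 non-exon peaks shared in the flanks moved to 17.6% under a mutual overlap of 50%, to 23.5% with the RIP-1 midpoint inside a RIP-2 peak and to 17.6% with the strongest RIP-2 peaks only. The middle moved to 9.52% under the last setting, where fewer RIP-2 peaks remain by construction. For each of the stricter overlaps the middle was at 19%, so the difference between flanks and middle was small there. The rule of 50% asks for that share of both peaks, so a narrow RIP-2 peak wholly inside a wide RIP-1 peak fails it. An example is the RIP-1 peak of 6097 bp, of which 17.1% was overlapped by a RIP-2 peak that lay 100% inside it. Taken alone, the right flank had a median width of 1275 bp (RIP-1) or 895 bp (RIP-2), and a median fold enrichment of 7.23 in RIP-2; the cause was not tested. The density ratio lay between 1.96 and 3.08 in RIP-1 and between 1.98 and 2.28 in RIP-2. Counting peaks of identical values once and leaving out the window from 12300001 were added after the data were seen. No paired analysis was possible because the lists give no value for any library by itself, and leaving out an experiment leaves no overlap. Since depth is unknown, list lengths and strengths cannot be compared between the experiments.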
